A study of Mus musculus with 6 samples.

Results

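Imprinted genes are transcribed mainly from the chromosome copy inherited from 1 parent. The 34 imprinted genes described here were taken from a list of symbols, matched to the Ensembl genes of the deposited tables and grouped by imprinted domain and by the parental allele known to be expressed. They lie in 17 domains on 9 chromosomes, 14 of them are expressed from the maternal and 20 from the paternal allele, and they are 34 of the 55487 genes listed. The RNA came from mouse embryonic fibroblasts (MEFs), connective-tissue cells grown out of embryos, that received no treatment. The series holds 6 RNA-seq libraries, 1 from wild-type (WT) and 1 from knockout (KO) cells at each of passages 2, 3 and 4, a passage being 1 round of detaching and replating a culture. The labels name neither the knocked-out gene, the strain nor the age of the embryos, and do not say whether the 3 passages of a genotype come from 1 culture. The p-values therefore measure only the spread between these libraries.

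Most imprinted genes sit in clusters that share an imprinting control region, a stretch of DNA methylated on 1 parental copy only. At some clusters the methylation blocks the insulator protein CTCF, and at others it silences a long non-coding RNA that would otherwise repress its neighbours in cis. Many of the paternally expressed genes promote embryonic growth and many of the maternally expressed genes restrain it, and several are abundant in the embryo and decline after birth. RNA-seq counts without parental variants do not say which allele a read came from. Every value below is therefore the sum over both alleles.

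Library totals ran from 24853103 to 67760815 expected counts, the read numbers that the quantifier RSEM estimates per gene. Levels of 1 gene across libraries are given in CPM (counts relative to a common library size after TMM scaling), and levels of different genes are compared in TPM, which also corrects for transcript length. Where a gene has 0 counts its level could still be up to 3 counts, which is 0.0431 to 0.124 CPM by library and covers counting error only. Genotypes follow the sample titles. In 2 libraries, both titled KO, the separate genotype tag reads WT. Xist, which is transcribed from the silenced X of female cells, ran from 417 to 567 CPM in the 3 libraries titled KO and reached at most 0.301 CPM in the 3 WT libraries, so genotype and the sex of the cells cannot be told apart. All 8 listed fibroblast markers were detected. Of these, 4 (Col1a1, Col1a2, Col3a1 and Pdgfra) were lower in KO. Markers of other cell types moved with passage. All 8 macrophage markers fell, and their summed level went from 118 to 51.7 and 19.2 CPM in WT and from 74.6 to 26.1 and 14.7 CPM in KO. The slope also fell for 5 of 6 adipocyte, 3 of 6 endothelial, 3 of 6 epithelial, 3 of 3 tested muscle (of 7 listed) and 1 of 6 tested neural markers (of 8 listed). None of the 6 trophoblast markers had enough counts to be tested. In bulk RNA, fewer cells of a type and less RNA per cell cannot be told apart.

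The 34 genes spanned a wide range of levels in these fibroblasts. Of the 32 with enough counts to be tested (edgeR's filter with a minimum count of 10), 8 had a mean TPM over the 6 libraries above 100, 15 between 10 and 100, and 9 below 10. Gnas, which encodes the stimulatory G protein alpha subunit, had the highest mean at 1390.4 TPM, followed by the non-coding RNA H19 at 1239 TPM and the snoRNA host Rian at 458 TPM. Igf2 averaged 344, Meg3 342, Grb10 279, Impact 146 and Igf2r 139 TPM. Both allele classes are among these 8. Summed over each class, maternally expressed genes gave 3183 to 6382 TPM in a library and paternally expressed genes 543 to 1341 TPM. The maternal sum includes Gnas, at 1203 to 1479 TPM, which is maternal in some tissues only. It also includes Copg2, with a maternal bias in some tissues, and Ube3a, made from both alleles in most cells other than neurons. The sums are therefore not amounts of RNA from 1 parental allele. The paternally expressed Magel2 and the maternally expressed Phlda2 did not pass the filter. Phlda2 had 1, 0 and 2 counts in WT and 2, 4 and 1 in KO at passages 2, 3 and 4. Magel2 had 0, 2 and 0 counts in WT and 1, 6 and 3 in KO.

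**Figure D1:**
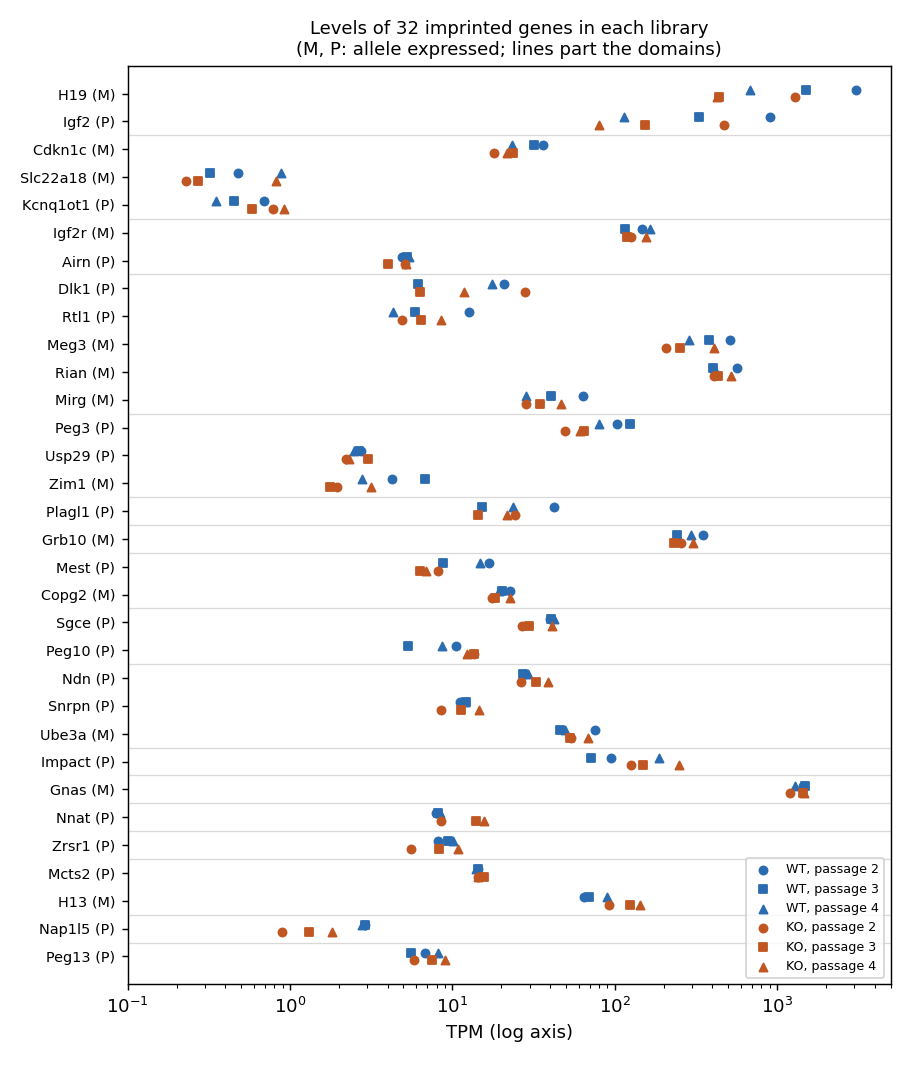
TPM (log axis) of the 32 tested imprinted genes in each of the 6 libraries, with WT in blue and KO in orange, passages as circles, squares and triangles, and M or P for the expressed parental allele. H19 spans 426 to 3085 TPM, a wider spread than Gnas, whose 6 values lie between 1203 and 1479 TPM.

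The question the design poses over passages is whether a gene's level has a slope from passage 2 to 4 that both genotypes share. Of the 32 tested genes, 2 fell and 2 rose with passage (edgeR's quasi-likelihood test with genotype as a covariate, Benjamini-Hochberg adjusted p under 0.05 over 16603 genes). Over all genes tested, 3.48% fell and 2.78% rose. The 2 that fell, H19 and Igf2, are the pair of the H19-Igf2 domain. The 2 that rose were Impact and H13. The median slope was -0.02 over the 32 genes and 0.00 over all genes, in log2 per passage. With no adjustment, 9 of the 32 genes and 21.2% of all genes had a p under 0.05.

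H19 (ENSMUSG00000000031, GRCm38 chromosome 7, 142575529 to 142578143, minus strand) is a long non-coding RNA made from the maternal allele, and Igf2 (ENSMUSG00000048583, chromosome 7, 142650766 to 142666816, minus strand) encodes the fetal growth factor IGF2 and is made from the paternal allele. The neighbours share enhancers and a control region at which CTCF binds the unmethylated maternal copy. An exon of H19 also holds the hairpin of miR-675, whose mature arms are shown because they are the sequence through which H19 RNA can act as a microRNA source. Capitals mark the seed, bases 2 to 8 from the 5′ end, and the sequences are RefSeq's on GRCm38.p6, minus strand, at chr7:142577078-142577099 (3p) and chr7:142577112-142577133 (5p).
mmu-miR-675-3p: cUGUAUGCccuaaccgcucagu
mmu-miR-675-5p: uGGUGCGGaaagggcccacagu
The libraries were counted per gene, so the level of the mature arms was not measured here.

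H19 stood at 3503, 2085 and 856 CPM in WT at passages 2, 3 and 4, and at 1614, 504 and 452 CPM in KO. Both genotypes were highest at passage 2 and lowest at passage 4, and KO was below WT at each passage. The slope was -0.96 log2 per passage (SE 0.13, edgeR adjusted p = 0.00961). Igf2 stood at 1906, 838 and 266 CPM in WT and at 1106, 326 and 157 CPM in KO. As for H19, each later passage was lower in both genotypes, and KO was below WT at each passage. Passage 2 of Igf2 was 7.16-fold above passage 4 in WT and 7.03-fold in KO. The slope of Igf2 was -1.41 log2 per passage (SE 0.08, edgeR adjusted p = 0.000748). The difference between the KO and WT slopes was 0.10 (SE 0.27, adjusted p = 0.962) for H19 and 0.01 (SE 0.17, adjusted p = 0.994) for Igf2.

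Although both fell, the pair did not keep its ratio. H19 TPM divided by Igf2 TPM was 3.38, 4.54 and 5.98 in WT and 2.73, 2.87 and 5.28 in KO at passages 2, 3 and 4, higher at each later passage in both genotypes. Of all genes, 8.91% had a CPM that fell from passage to passage in both genotypes and 9.47% one that rose so. Among the 32 genes those that fell so were H19 and Igf2, and the 1 that rose so was H13. The macrophage markers fell along with H19 and Igf2, and their part in the slope was not tested. The slope of Igf2 passed the test when any 1 library was left out, with adjusted p from 0.00104 to 0.0166, and missed it without both passage 2 libraries (-1.36, adjusted p = 0.0604). H19 lost its call when WT passage 4 was left out (adjusted p = 0.0689), when KO passage 2 was (adjusted p = 0.0803) and when both passage 2 libraries were (-0.72, adjusted p = 0.38). A fit with no genotype covariate called 0 of the 32 genes.

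Igf2 shares 62.8% of its exon bases with Gm49394 on the same strand, and 60.7% of its 64-base words also occur in another gene's transcripts. RSEM gave Gm49394 0.213 CPM in WT passage 2 and 0 counts in the other 5 libraries, so nearly all shared reads were assigned to Igf2. Igf2os, a transcript antisense to Igf2 on the list of other imprinted genes, fell as well (-1.80 log2 per passage, SE 0.22, edgeR adjusted p = 0.0048). It stood at 3.17, 0.851 and 0.414 CPM in WT and at 2.56, 0.746 and 0.0954 CPM in KO. Whether the counting used strand is not given in the sources used here, so its reads and those of Igf2 cannot be told apart where exons overlap.

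Impact (ENSMUSG00000024423, chromosome 18, 12955852 to 12992950, plus strand) encodes an inhibitor of the amino acid sensor kinase GCN2 and is paternally expressed. It stood at 90.8, 86.6 and 184 CPM in WT and at 119.7, 153 and 217 CPM in KO. KO was above WT at each passage, and in both genotypes passage 4 was the highest library. The slope was 0.47 log2 per passage (SE 0.10, edgeR adjusted p = 0.0314). H13 (ENSMUSG00000019188, chromosome 2, 152669461 to 152708670, plus strand) encodes signal peptide peptidase, which cleaves signal peptides within the membrane, and its full-length transcripts come from the maternal allele. It stood at 71.3, 86.6 and 108 CPM in WT and at 112, 135 and 145 CPM in KO. The lowest KO library was above the highest WT library, and each passage was above the one before it. The slope was 0.24 log2 per passage (SE 0.05, edgeR adjusted p = 0.0367).

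The 2 rising slopes rest on few libraries. Impact and H13 kept their calls in 1 of the 6 fits that left out a single library, the one without WT passage 3, and neither passed without both passage 2 libraries (adjusted p = 0.134 and 0.642). With effective lengths as offsets Impact missed the threshold (adjusted p = 0.0731), and H13 missed it with limma on log2(TPM + 1) (adjusted p = 0.112).

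**Figure D2:**
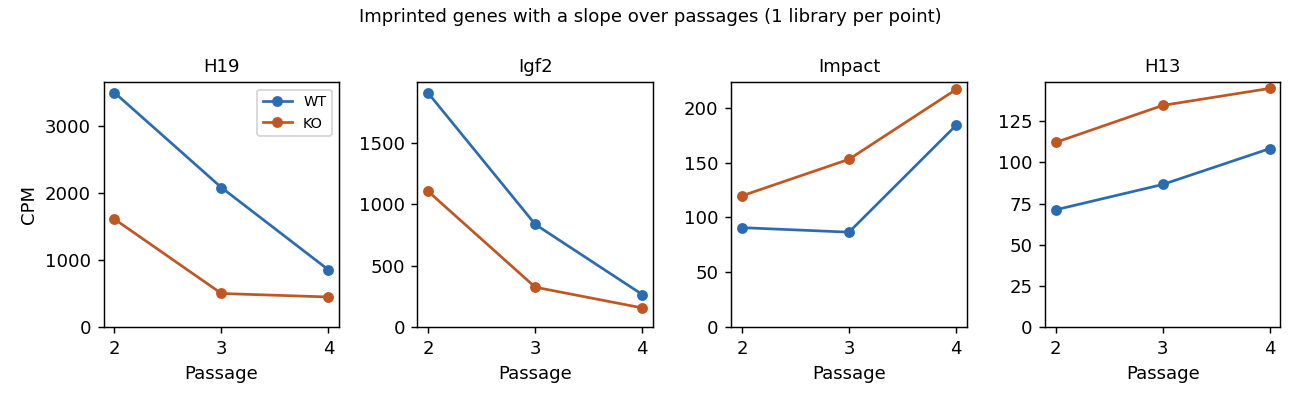
CPM (vertical axes from 0, 1 scale per gene) of H19, Igf2, Impact and H13 against passage, 1 library per point, WT in blue and KO in orange. H19 and Igf2 are lower at each later passage in both genotypes, and Impact and H13 are highest at passage 4.

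The comparison of KO with WT asks whether imprinted genes differ between the genotypes. Of the 32 genes, 0 passed edgeR's test with the passages as the 3 libraries of a genotype, against 0.934% of all genes called higher and 1.55% called lower in KO. With no adjustment 9 of the 32 had a p under 0.05, and 21.3% of all genes did. By DESeq2, 1 was called higher and 6 lower, where it called 4.48% of all genes higher and 5.52% lower. The genes sat mostly below 0. The log2 change was negative for 26 and positive for 6, with a median of -0.26 over the 32 genes and -0.01 over all genes. Maternally expressed genes had a median of -0.27, with 1 above and 12 below 0, and paternally expressed genes a median of -0.18, with 5 above and 14 below 0. Over all genes, limma on log2(TPM + 1) split its 387 calls into 219 higher and 168 lower, where edgeR on counts had 155 higher and 257 lower.

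Libraries of the same passage deviated together, so the comparison was also made within passages, with passage as a block. Then 9 of the 32 genes were called, 2 higher and 7 lower in KO, beside 4.69% of all genes called higher and 6.37% called lower. The 7 lower were H19, Igf2, Cdkn1c, Peg3, Mest, Sgce and Nap1l5, and the 2 higher were H13 and Impact. All 9 had the same sign at every passage, which selection by this test on the same libraries favours. By allele, 1 maternally expressed gene was higher and 2 were lower, and 1 paternally expressed gene was higher and 5 were lower. Of the 9, 3 (H19, Igf2 and Mest) were called when the libraries of passage 2, of passage 3 or of passage 4 were left out in turn. The count over the 32 genes was then 4, 3 and 15, while 3.84%, 1.53% and 18.6% of all genes were called in the same fits. With the groups taken from the genotype tag, which disagrees with the title in 2 libraries, KO passage 2 was the only KO library. Genotype and passage cannot be told apart in that fit. Its change without a block was 0.12 against -1.33 by title for H19, 0.66 against -0.92 for Igf2 and -0.29 against 0.44 for Impact. Marker genes of other cell types were also called between genotypes with the block. Of the 8 macrophage markers 4 were lower in KO and all 8 were below 0 (median -0.66), 1 adipocyte marker (Lpl) was lower, and 1 epithelial (Krt18) and 1 muscle marker (Des) were higher. Their part in the changes of the imprinted genes was not tested. Sex and the genotype differ between the same libraries, and their parts in these differences cannot be told apart.

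**Figure D3:**
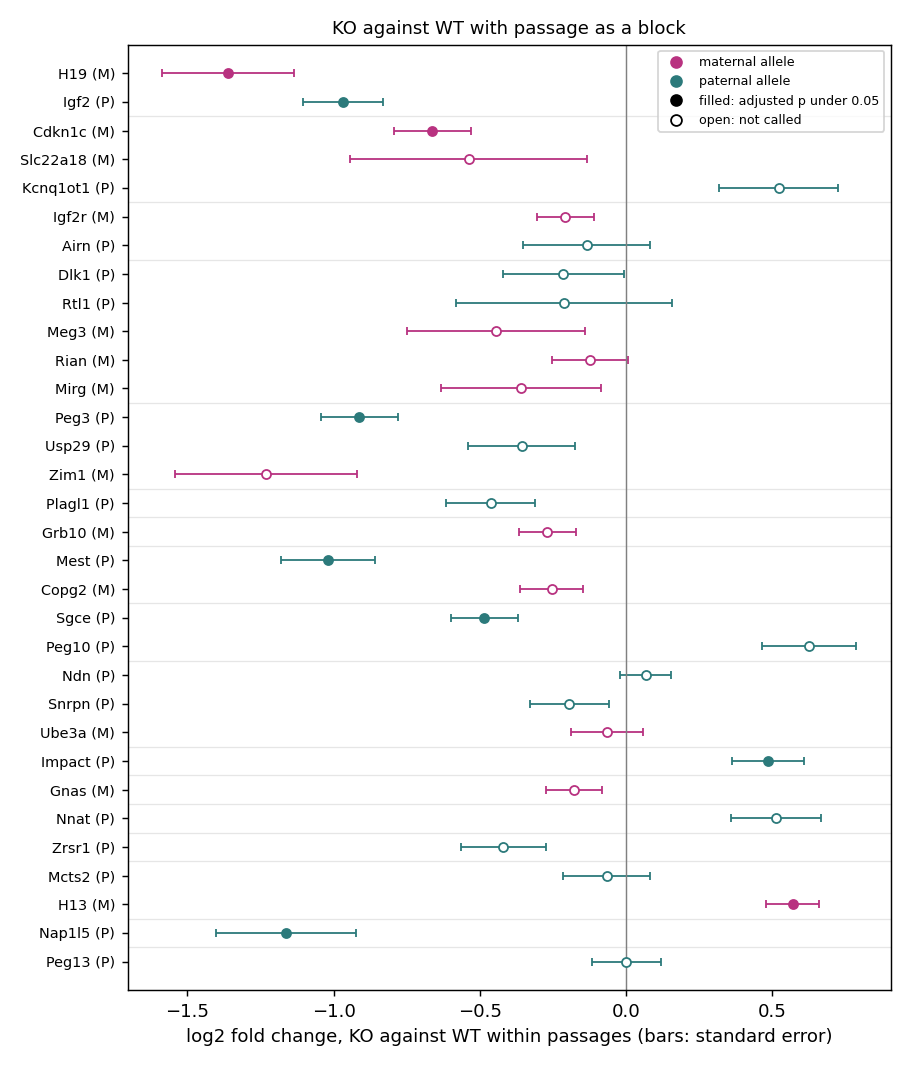
Log2 fold change of KO against WT within passages, with its standard error (edgeR, passage as a block), for the 32 tested imprinted genes, coloured by expressed allele, with filled points for adjusted p under 0.05. The 7 filled points left of 0 run from -1.36 for H19 to -0.49 for Sgce, and the 2 to the right are H13 at 0.57 and Impact at 0.49.

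For H19 the change within passages was -1.36 (SE 0.22, edgeR adjusted p = 0.0206) and for Igf2 -0.97 (SE 0.14, adjusted p = 0.009). WT was 2.17-, 4.14- and 1.90-fold above KO for H19, and 1.72-, 2.57- and 1.69-fold for Igf2, at passages 2, 3 and 4. Without the block the wide spread over passages put both far from the threshold, at adjusted p = 0.292 and 0.589. Impact was higher in KO by 0.49 (SE 0.12, adjusted p = 0.0475 with the block and 0.508 without), and H13 by 0.57 (SE 0.09, adjusted p = 0.0131 with the block and 0.124 without). Groups that do not overlap in any library are another view. Over all genes 13.1% had every KO library above every WT library and 14.1% had every KO library below. Among the 32 genes, 2 (Peg10 and H13) were above and 7 (Cdkn1c, Peg3, Zim1, Mest, Copg2, Sgce and Nap1l5) were below. These counts are in CPM. In TPM the groups of Cdkn1c, Zim1, Copg2 and Sgce overlapped, and those of the other genes named did not.

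In the Kcnq1 domain the non-coding RNA Kcnq1ot1, made from the paternal allele, silences its neighbours on that copy, and Cdkn1c, an inhibitor of cyclin-dependent kinases, is made from the maternal copy. Cdkn1c (ENSMUSG00000037664, chromosome 7, 143458339 to 143461050, minus strand) stood at 31.4, 32.6 and 22.7 CPM in WT and at 17.3, 19.2 and 17.7 CPM in KO. The genotypes did not overlap in CPM, with means of 28.9 ± 5.41 (SD, n = 3) and 18.1 ± 0.984 CPM. The change was -0.68 (SE 0.16, edgeR adjusted p = 0.072), and -0.66 (SE 0.13, adjusted p = 0.0244) within passages. Kcnq1ot1 stood at 35.5, 27.7 and 19.8 CPM in WT and at 44.6, 29.8 and 44.2 CPM in KO. KO was above WT at each passage, but the groups overlapped (0.51, SE 0.24, adjusted p = 0.281). Cdkn1c TPM divided by Kcnq1ot1 TPM was 52.3, 71.0 and 66.7 in WT and 23.1, 40.5 and 23.7 in KO, so that every KO library was below every WT library. Slc22a18, a membrane transporter, stood at 0.331, 0.276 and 0.579 CPM in WT and 0.180, 0.158 and 0.541 CPM in KO, a low level at which single reads weigh. Of Cdkn1c's exon bases, 30.7% lie opposite exons of Gm44732.

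In the Igf2r-Airn domain the paternal non-coding RNA Airn runs antisense through the start of Igf2r and silences it on that copy. Igf2r encodes the receptor that takes up IGF2 for degradation and sorts lysosomal enzymes. It stood at 708, 669.6 and 895.6 CPM in WT and at 674, 577 and 709 CPM in KO. The groups overlapped, and the change was -0.21 (SE 0.14, edgeR adjusted p = 0.446). Airn stood at 2.79, 2.98 and 3.104 CPM in WT and at 3.17, 2.24 and 2.77 CPM in KO (-0.12, SE 0.22, adjusted p = 0.799). Igf2r TPM was 22.1 to 30.4 times Airn TPM in the 6 libraries. The exons of the pair do not overlap in GENCODE M21.

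The Dlk1-Meg3 domain on chromosome 12 holds Dlk1 and Rtl1, expressed from the paternal copy, and the non-coding RNAs Meg3, Rian and Mirg, expressed from the maternal copy. Dlk1 encodes a transmembrane protein that holds back adipocyte differentiation, and Rtl1 a retrotransposon-derived protein needed in the placenta. Rian hosts snoRNAs and Mirg hosts microRNAs. Rtl1 (chromosome 12, 109589193 to 109600330) lies on the minus strand, while Meg3 (109541001 to 109571726), Rian (109603940 to 109661716) and Mirg (109729764 to 109749460) lie on the plus strand. A maternal transcript opposite Rtl1 carries microRNAs that pair perfectly with Rtl1 RNA and cut it. RefSeq lists 6 hairpins opposite the span of the Rtl1 gene (GRCm38.p6, plus strand). Only the mature arms named 3p within that span are shown, with seeds (bases 2 to 8) in capitals. They lie at chr12:109590502-109590523, chr12:109591781-109591802, chr12:109592888-109592909, chr12:109594565-109594586 and chr12:109595366-109595387, in this order.
mmu-miR-431-3p: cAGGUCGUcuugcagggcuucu
mmu-miR-433-3p: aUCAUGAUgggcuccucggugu
mmu-miR-127-3p: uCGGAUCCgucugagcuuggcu
mmu-miR-434-3p: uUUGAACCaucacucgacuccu
mmu-miR-136-3p: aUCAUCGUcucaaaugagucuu
All 7 arms printed, those of miR-675 included, have different seeds. Mirg holds 14 hairpins on its own strand in the same table.

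Within this domain Rtl1 had the pattern of the maternal RNAs and not that of Dlk1. Meg3 stood at 492.5, 406 and 283 CPM in WT and at 236.5, 247 and 389 CPM in KO at passages 2, 3 and 4. Mirg stood at 56.2, 43.3 and 29.6 CPM in WT and at 27.0, 32.3 and 39.5 CPM in KO. Rian stood at 578, 481 and 442 CPM in WT and at 419, 453 and 499 CPM in KO. In all 3, WT was lower and KO higher at each later passage, so that WT was above KO at passages 2 and 3 and below it at passage 4. Rtl1 stood at 43.7, 24.3 and 16.7 CPM in WT and at 18.8, 22.3 and 27.6 CPM in KO, with the same crossing. Dlk1 stood at 15.4, 5.01 and 12.95 CPM in WT and at 19.2, 4.26 and 7.60 CPM in KO, with its lowest library at passage 3 in both genotypes.

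The difference of slopes, KO minus WT, was 0.97 for Rtl1 (SE 0.12, edgeR adjusted p = 0.303), 0.76 for Meg3 (SE 0.14, adjusted p = 0.548), 0.73 for Mirg (SE 0.11, adjusted p = 0.449) and 0.32 for Rian (SE 0.10, adjusted p = 0.622), in log2 per passage. For Dlk1 it was -0.55 (SE 0.63, adjusted p = 0.91). None of the 32 genes passed edgeR's test of this difference, and 0% of all genes were called in either direction. With no adjustment, 5 of the 32 and 6.85% of all genes had a p under 0.05. DESeq2 called 0.5% of all genes, Rtl1 (adjusted p = 0.000266), Meg3 (0.00282) and Mirg (0.00482) among them, and edgeR without the filter on low counts called the same 3 and 0.915% of the genes it tested. Over all genes, 3.04% had a CPM that fell from passage to passage in WT and rose in KO, and 2.98% the reverse. Of the 32 genes, 5 had the first pattern (these 4 and Ube3a) and 0 the second. Ube3a was nearly flat in KO from passage 3 to 4, at 147.85 and 147.87 CPM. The exons of Rtl1 overlap annotated exons on the opposite strand over 8.12% of their bases, with the microRNA genes Mir433, Mir434 and Mir431 as the largest partners. That share does not give the extent of the maternal transcript opposite Rtl1. As the use of strand is not given, reads of that transcript cannot be told apart from Rtl1 wherever it runs opposite Rtl1 exons. Their part in the Rtl1 pattern was not tested.

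Ratios of Meg3 to the other genes of the domain varied least for Mirg and most for Dlk1. Meg3 TPM was 7.25 to 10.1 times Mirg TPM, 39.4 to 66.2 times Rtl1 TPM and 0.5095 to 0.935 times Rian TPM over the 6 libraries. Against Dlk1 it ran from 7.47 to 62.0 times. The change of KO against WT was -0.44 for Meg3 (SE 0.26, edgeR adjusted p = 0.382), -0.39 for Mirg, -0.13 for Rian, -0.31 for Rtl1 and -0.12 for Dlk1, and the groups overlapped for all 5.

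**Figure D4:**
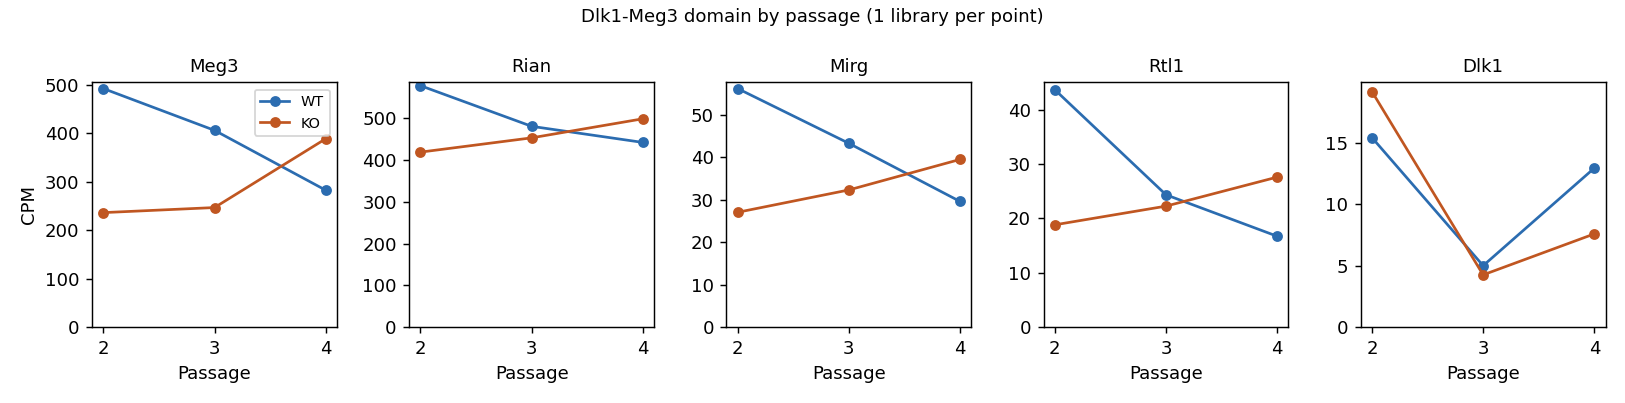
CPM (vertical axes from 0, 1 scale per gene) of the 5 genes of the Dlk1-Meg3 domain against passage, 1 library per point, WT in blue and KO in orange. The lines of Meg3, Rian, Mirg and Rtl1 cross between passages 3 and 4, while Dlk1 is lowest at passage 3 in both genotypes.

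In the Peg3 domain, Peg3 encodes a large zinc finger protein and Usp29 a deubiquitinase. Both are paternally expressed from starts that lie next to each other on opposite strands, and Zim1, another zinc finger gene, is maternally expressed. Peg3 (ENSMUSG00000002265, chromosome 7, 6703892 to 6730431, minus strand) stood at 476, 689 and 382 CPM in WT and at 245, 299 and 257 CPM in KO. The genotypes did not overlap, with means of 515.5 ± 157 (SD, n = 3) and 267 ± 28.3 CPM. The change was -0.95 (SE 0.21, edgeR adjusted p = 0.0699), and -0.91 (SE 0.13, adjusted p = 0.00919) within passages. The block's call was lost narrowly without passage 3 (adjusted p = 0.0503).

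Zim1 stood at 11.6, 17.5 and 7.45 CPM in WT and at 4.44, 4.59 and 6.10 CPM in KO, also without overlap. Its change was -1.28 (SE 0.31, edgeR adjusted p = 0.0803), and -1.23 (SE 0.31, adjusted p = 0.057) within passages, and DESeq2 called it (-1.27, adjusted p = 0.00239). Usp29 stood at 4.18, 5.61 and 3.23 CPM in WT and at 3.03, 4.25 and 2.83 CPM in KO, with overlapping groups (-0.36, SE 0.27, adjusted p = 0.496). In CPM all 3 genes of the domain, from both parental copies, had their highest WT library at passage 3. In TPM this did not hold for Usp29, at 2.75, 2.66 and 2.47 TPM in WT at passages 2, 3 and 4. Peg3 TPM was 18.3 to 36.5 times Zim1 TPM over the libraries.

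Mest (ENSMUSG00000051855, chromosome 6, 30723547 to 30748465, plus strand), a paternally expressed gene of mesodermal tissues that encodes a hydrolase-like protein, stood at 20.99, 12.7 and 19.9 CPM in WT and at 10.9, 7.79 and 7.44 CPM in KO. The groups did not overlap, with means of 17.9 ± 4.49 (SD, n = 3) and 8.70 ± 1.88 CPM. The change was -1.04 (SE 0.23, edgeR adjusted p = 0.0689), and -1.02 (SE 0.16, adjusted p = 0.0127) within passages. Copg2, which encodes a coat protein subunit of transport vesicles, lies tail to tail with Mest and has a maternal bias in some tissues. It stood at 42.4, 38.0 and 37.9 CPM in WT and at 32.2, 30.7 and 36.6 CPM in KO, without overlap (-0.25, SE 0.11, adjusted p = 0.244). The pair's exons overlap on opposite strands, over 23.1% of the exon bases of Mest and 17.8% of those of Copg2, and counts in the overlap cannot be assigned by strand.

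Nap1l5 (ENSMUSG00000055430, chromosome 6, 58905233 to 58907076, minus strand), a single-exon, paternally expressed gene for a nucleosome assembly protein-like factor, lies in an intron of Herc3. It stood at 2.39, 3.18 and 2.90 CPM in WT and at 0.938, 1.26 and 1.65 CPM in KO. The highest KO library was below the lowest WT library, and the change was -1.13 (SE 0.28, edgeR adjusted p = 0.0855), and -1.16 (SE 0.24, adjusted p = 0.0281) within passages. Its host Herc3 did not pass the test (-0.07, SE 0.26, adjusted p = 0.916). In TPM Nap1l5 was 2.85 ± 0.0608 (SD, n = 3) in WT and 1.34 ± 0.466 in KO.

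Mest and Nap1l5, both lower in KO with the block, are also the 2 genes with at least 2 copies of the hexamer TGCCGC in a RefSeq promoter window, among the 27 member genes with a window used here. A window runs from 250 bases before to 50 bases after a start, and both strands were searched. When methylated, this hexamer is bound by ZFP57, which keeps the methylation of imprinting control regions through early development. The windows are shown 5′ to 3′ along each gene (GRCm38.p6, Mest chr6:30737800-30738099 on the plus strand, Nap1l5 chr6:58907077-58907376 on the minus strand), with the hexamer in capitals, in Mest as its reverse complement GCGGCA.
Mest: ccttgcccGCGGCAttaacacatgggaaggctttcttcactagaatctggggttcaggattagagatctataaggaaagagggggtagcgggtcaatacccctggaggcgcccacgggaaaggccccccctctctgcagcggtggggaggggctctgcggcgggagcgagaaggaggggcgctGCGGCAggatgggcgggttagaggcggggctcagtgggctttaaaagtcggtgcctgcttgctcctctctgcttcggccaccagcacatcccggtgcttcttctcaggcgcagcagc
Nap1l5: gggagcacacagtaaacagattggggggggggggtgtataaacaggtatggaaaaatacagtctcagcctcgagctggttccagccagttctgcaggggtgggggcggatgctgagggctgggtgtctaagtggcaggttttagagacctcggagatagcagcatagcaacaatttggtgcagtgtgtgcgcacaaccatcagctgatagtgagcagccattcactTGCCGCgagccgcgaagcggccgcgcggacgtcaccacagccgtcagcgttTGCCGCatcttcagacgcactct
Of 40 windows of 27 member genes, 12 (30.0%) hold the hexamer at least once and 3 (7.5%) at least 2 times, the 3 including a pair of windows of Mest that nearly coincide. Over 32851 windows of 27025 genes the shares are 11.6% and 1.53%. The member windows are also richer in CG pairs, with a median of 13.5 against 7, and the hexamer itself holds one. Among the other genes lower in KO with the block, the window of Peg3 holds no match and 1 of the 4 windows of Igf2 holds 1. No window was searched for H19, Cdkn1c and Sgce. Of the 2 genes higher in KO with the block, the window of H13 holds no match. Impact was left out of the 27 member genes and their shares, so whether it holds the hexamer is not given here. The files give no methylation or binding, so these matches describe the sequence only.

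In the Peg10 domain, Sgce, which encodes a sarcoglycan, and Peg10, a retrotransposon-derived gene, start next to each other on opposite strands, are both paternally expressed, and differed in opposite directions. Sgce (ENSMUSG00000004631, chromosome 6, 4674350 to 4747207, minus strand) stood at 34.5, 42.3 and 40.9 CPM in WT and at 26.0, 25.7 and 32.7 CPM in KO. Its groups did not overlap in CPM (-0.48, SE 0.14, edgeR adjusted p = 0.112, and -0.49, SE 0.11, adjusted p = 0.0391 within passages). Peg10 ran from 22.8 to 37.8 CPM in WT and from 41.6 to 53.7 CPM in KO, with every KO library above every WT library (0.60, SE 0.20, adjusted p = 0.145). Within passages Peg10 missed edgeR's threshold (0.62, SE 0.16, adjusted p = 0.0515), and DESeq2 with the block called it (0.63, adjusted p = 0.00588). Sgce TPM divided by Peg10 TPM was 3.78, 7.63 and 4.86 in WT and 1.98, 2.20 and 3.30 in KO.

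In the Snrpn-Ube3a domain, the region affected in Prader-Willi and Angelman syndromes, no gene passed a test. Ndn, which encodes the growth suppressor necdin, stood at 55.9, 65.3 and 64.7 CPM in WT and at 58.1, 65.2 and 72.0 CPM in KO (0.07, SE 0.12, edgeR adjusted p = 0.776). Snrpn, which encodes a spliceosomal protein, stood at 11.3, 14.9 and 13.5 CPM in WT and at 9.56, 11.5 and 14.0 CPM in KO (-0.18, SE 0.18, adjusted p = 0.607). Ube3a, a ubiquitin ligase gene expressed from the maternal copy in neurons and from both copies in most other cells, stood at 183, 153 and 126 CPM in WT and at 141, 148 and 148 CPM in KO. The groups overlapped for all 3 genes. The exons of Ube3a lie opposite other exons over 27.3% of their bases, those of the antisense Snhg14 among them, and Snrpn shares 20.3% of its words with other genes, Snurf among its overlapping partners.

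Mcts2, a paternally expressed retrogene inside an intron of H13, passed neither test. It stood at 6.50, 7.76 and 7.04 CPM in WT and at 7.14, 7.09 and 6.10 CPM in KO (-0.07, SE 0.15, edgeR adjusted p = 0.85; slope -0.03, SE 0.09, adjusted p = 0.911). H13 TPM divided by Mcts2 TPM was 4.51, 4.86 and 6.39 in WT and 6.45, 7.996 and 9.90 in KO, higher at each later passage and higher in every KO library than in every WT library.

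The 6 remaining single-gene domains held no gene called by edgeR on all 6 libraries, with or without the block. DESeq2 called the slopes of Plagl1 and Zrsr1. Grb10, an adaptor that dampens insulin and IGF receptor signalling, ran from 745 to 938 CPM in WT and from 604 to 748 CPM in KO (-0.27, SE 0.13, edgeR adjusted p = 0.293). Gnas ran from 936 to 1144 CPM in WT and from 887 to 949.7 CPM in KO (-0.18, SE 0.11, adjusted p = 0.394), and 22.0% of its exon bases lie opposite other exons, Nespas among them. Plagl1, a zinc finger growth regulator, ran from 38.4 to 90.0 CPM in WT and from 30.6 to 49.1 CPM in KO (-0.55, SE 0.35, adjusted p = 0.42). The groups of all 3 overlapped. Nnat, a membrane proteolipid gene in an intron of Blcap, ran from 4.30 to 5.66 CPM in WT and from 5.44 to 8.36 CPM in KO (0.53, SE 0.22, adjusted p = 0.217). Zrsr1, a splicing factor retrogene in an intron of Commd1, ran from 9.24 to 13.3 CPM in WT and from 6.53 to 11.8 CPM in KO, and had a slope of 0.33 per passage (SE 0.09, adjusted p = 0.0721). Peg13, a non-coding RNA in an intron of Trappc9, ran from 17.1 to 23.1 CPM in WT and from 16.5 to 21.5 CPM in KO (0.00, SE 0.16, adjusted p = 0.993).

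Imprinted genes outside the 34 gave a median of 0.05 for KO against WT. Of 49 listed, 36 were tested, with 0 higher and 1 lower in KO by edgeR, 1 higher and 3 lower by DESeq2, and 8 at an unadjusted p under 0.05. The 1 lower by edgeR was Dcn, which encodes the matrix proteoglycan decorin and is imprinted in placenta (-0.94, SE 0.17, edgeR adjusted p = 0.037). It ran from 488 to 679 CPM in WT and from 242 to 325 CPM in KO. With the block 2 were higher and 4 lower. Over passages 3 rose, Osbpl5 (0.31 per passage, SE 0.06), Blcap (0.25, SE 0.05) and Htr2a (0.37, SE 0.05), and 3 fell, Igf2os, the amino acid transporter gene Slc38a4 (-0.55, SE 0.07) and the creatine synthesis gene Gatm (-0.85, SE 0.16).

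Genes that set or keep imprints were tested for 21 of 23 listed. Between genotypes edgeR called 0, with 4 at an unadjusted p under 0.05 and a median of 0.09, and DESeq2 called 1 higher and 1 lower. With the block 1 was called, the DNA methyltransferase gene Dnmt3a (-0.52, adjusted p = 0.0459 by edgeR). Over passages 3 fell, 8 having an unadjusted p under 0.05. These were Uhrf1, which recruits the maintenance methyltransferase (-0.50 per passage, SE 0.07, adjusted p = 0.00855), the chromatin remodeller gene Hells (-0.38, SE 0.07, adjusted p = 0.0188) and the Polycomb methyltransferase gene Ezh2 (-0.28, SE 0.06, adjusted p = 0.0444). Zfp57 ran from 29.4 to 34.6 CPM over the 6 libraries and passed neither test.

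Protein-coding genes within 250 kb of a member and on neither imprinted list numbered 106, of which 65 were tested. Their median for KO against WT was 0.01, beside -0.26 for the imprinted genes, and 36 were above and 29 below 0. The 1 called higher was Tnfrsf22, a decoy receptor gene at the Kcnq1 domain (0.76, SE 0.13, edgeR adjusted p = 0.0353). The 1 called lower was Col1a2, a fibrillar collagen gene near Sgce (-1.09, SE 0.15, adjusted p = 0.0187). With the block 5 were higher, Tnfrsf22, Tnfrsf23, Ltv1 and, near H13, Bcl2l1 and Id1. The 3 lower were Col1a2, Phactr2 and, near H19, Lsp1. Over passages 3 rose, Bcl2l1, Id1 and Ctsd, and 3 fell, Lsp1, Fignl1 and Ikzf1. Bcl2l1 and Id1 thus rose and were higher in KO as H13 was, and Lsp1 fell and was lower as H19 was.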

How the data were processed

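The submitters' processing notes name Trimmomatic 0.39, RSEM and the build GRCm38. The aligner, the annotation release, RSEM's version and its use of strand are not stated there. For each library the authors deposited RSEM's expected counts (12.0% to 15.8% of them not whole), TPM values and effective lengths.

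Symbols and coordinates came from GENCODE M21 (99.4% of the listed genes matched), and promoters and microRNAs from RefSeq. Expected counts were rounded, scaled by TMM and tested with the 2-sided quasi-likelihood test of edgeR 4.0.16 in R 4.3.3, over the 16603 genes that passed a filter with a minimum count of 10. Adjusted p-values are Benjamini-Hochberg over all of these, called under 0.05. Fits held genotype alone, genotype with passage as a number, or both with their product. Libraries of the same passage deviated together from their group means, with correlations of 0.548, 0.195 and 0.472 across genes at passages 2, 3 and 4, so passage pairs the libraries and a fit with passage as a block is given where it changes a call. The alternatives were DESeq2 1.42.0, its size factors, no filter, limma 3.58.1 on log2(TPM + 1), effective lengths as offsets, the genotype tag, no genotype covariate and left-out libraries. The fits were checked on simulated data. The members, domains and gene lists were chosen with earlier results of these data known. Values per library are given for members that passed a genotype or passage test, with or without the block, or that lie in a domain with members expressed from both alleles. Other imprinted genes, imprint regulators and neighbours were named where they passed the genotype or passage test, and neighbours also where they passed the genotype test with the block. Neighbours named for the block or for passages, and genes named without passing their test, were chosen after their values were seen.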

Additional observations from a re-analysis of the deposited data

Results flagged for a closer look

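For 5 genes every WT library was below the one of the passage before it and every KO library above it, opposite orders over the same passages. They were Rtl1, Meg3, Mirg and Rian of the Dlk1-Meg3 domain and Ube3a. For Ube3a the KO order rests on a nearly flat last step, from 147.85 CPM at passage 3 to 147.87 CPM at passage 4. The slope in KO minus that in WT was 0.97 for Rtl1, 0.76 for Meg3, 0.73 for Mirg, 0.32 for Rian and 0.30 for Ube3a, in log2 per passage. The difference did not pass edgeR's interaction test for any of the 5, with adjusted p from 0.303 to 0.625. DESeq2 and edgeR without the filter on low counts called Rtl1, Meg3 and Mirg. Every value rests on 1 library per genotype and passage.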

How the results depend on the processing

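The block's calls and those of the difference of slopes rest on 2 residual degrees of freedom and 1 library per genotype and passage. The labels' tag disagrees with the title in 2 libraries. The fits that join the block with DESeq2, with effective lengths or with a left-out passage, and those without both passage 2 libraries, were chosen after seeing the data. The cause of each shift below was not tested.

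For KO against WT the main count was 412 genes and 0 members. With passage as a replicate block it was 1835 and 9. DESeq2 gave 1661 and 7, no filter 846 and 3, limma on log2(TPM + 1) 387 and 1, and no passage 2 libraries 59 and 0. The genotype tag leaves KO passage 2 as the only KO library, so its counts are not given. The block gave 2377 and 11 with DESeq2, 1580 and 9 with effective lengths, 639 and 4 without passage 2, 248 and 3 without passage 3, and 3197 and 15 without passage 4. Leaving out 1 library gave 38 to 847 genes and 0 to 3 members, the most without WT passage 4 and the fewest genes without KO passage 3.

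For the slope per passage the main count was 1038 genes and 4 members. DESeq2 gave 1709 genes, no filter 2443 and 7 members, no genotype covariate 157 and 0, and no passage 2 libraries 11 and 0. Without the filter edgeR's adjusted p became far smaller for Igf2, 3.64e-90 against 0.000748 in the main fit. Leaving out 1 library gave 278 to 1286 genes and 1 to 5 members. For the difference of slopes the main count was 0 and 0. DESeq2 gave 83 and 3, no filter 289 and 3, and limma on log2(TPM + 1) 2 genes. Leaving out 1 library gave 0 to 10 genes and 0 members. DESeq2's size factors in edgeR moved no count of called genes or members by over 1.5 times, and no called slope of a member changed direction under any alternative. Between genotypes, of the 9 members called with the block, H19 (0.12), Igf2 (0.66) and Impact (-0.29) changed direction under the genotype tag. That fit sets KO passage 2 alone against all other libraries, so genotype and passage cannot be told apart in it.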
